A study of Mus musculus with 4 samples.

Results

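Pou3f1, Pou3f2, Pou3f3 and Pou3f4 are the 4 class III POU transcription factor genes of the mouse. They were taken by gene name from a deposited expression table of 20793 gene rows, and each name had 1 row. The table comes from RNA-seq of mouse brain at postnatal day 1, with 2 wild-type (WT) libraries and 2 libraries lacking CIC (capicua), a transcriptional repressor whose activity ERK signalling relieves. The knockout (KO) carried 2 loxP-flanked Cic alleles and Nes-Cre, a Cre recombinase driven by Nestin regulatory sequence and thus active mainly in neural progenitors, so that cells outside this lineage should keep the gene. The labels of the WT animals conflict, since the titles call them Cre-negative with floxed alleles and the genotype field gives Nes-Cre with CIC+/+. The groups follow the description field. The libraries carry the letters A and B in each group, and whether these were separate animals is not stated. The p-values therefore reflect the variation among 4 libraries, which may be technical.

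POU proteins bind DNA through 2 linked parts, a POU-specific domain and a POU homeodomain, and recognise an octamer and its variants. The class III genes act mostly in the nervous system. Pou3f2 (Brn2) and Pou3f3 (Brn1) act together in cortical progenitors and in the migration and production of upper-layer cortical neurons. Pou3f2 is also needed for the vasopressin, oxytocin and corticotropin-releasing hormone neurons of the hypothalamus. Pou3f1 (Oct6, also SCIP) is best known from the timing of myelination by Schwann cells and is also made in cortical projection neurons. Pou3f4 (Brn4) acts in the inner ear, and loss of the human gene causes X-linked deafness. It is also expressed in the developing forebrain, the striatal primordium included.

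The part of the proteins that the 4 genes share most closely is shown here by its coding sequence, because it bears on whether reads of one member could be taken for another. A stretch of 120 coding bases in the POU-specific domain, the ungapped window with the most bases alike in all 4 genes, had 96 positions alike and 24 that differed, which are in capitals. All 40 codons of the stretch specified the same residues in the 4 genes. The sequences are from the GENCODE transcripts of build GRCm38 and read 5′ to 3′ on the coding strand.
Pou3f1 (GRCm38, chr4:124658508-124658627, + strand): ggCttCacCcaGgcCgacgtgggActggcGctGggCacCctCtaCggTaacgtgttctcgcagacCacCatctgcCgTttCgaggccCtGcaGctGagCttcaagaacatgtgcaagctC
Pou3f2 (GRCm38, chr4:22487154-22487273, - strand): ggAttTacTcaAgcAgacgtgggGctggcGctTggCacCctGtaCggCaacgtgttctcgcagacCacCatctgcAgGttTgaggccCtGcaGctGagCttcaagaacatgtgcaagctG
Pou3f3 (GRCm38, chr1:42698145-42698264, + strand): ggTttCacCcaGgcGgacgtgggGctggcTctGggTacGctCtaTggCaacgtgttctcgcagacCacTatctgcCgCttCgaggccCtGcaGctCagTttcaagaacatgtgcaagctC
Pou3f4 (GRCm38, chrX:110815089-110815208, + strand): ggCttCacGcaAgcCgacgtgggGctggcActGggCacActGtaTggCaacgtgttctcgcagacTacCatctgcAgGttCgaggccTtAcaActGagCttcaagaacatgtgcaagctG

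Even in this stretch, pairs of members had from 102 (Pou3f3 with Pou3f2 or Pou3f4) to 108 (Pou3f1 with Pou3f3) of 120 bases alike. Over the whole coding sequences, identity of aligned bases ran from 71.3% (Pou3f1 with Pou3f4) to 75.1% (Pou3f2 with Pou3f3). The longest run of bases shared exactly by any pair of transcripts was 38 bases, between Pou3f1 and Pou3f2. No window of 50 bases of any of the 4 transcripts occurred in another member. Reads of that length or longer that match without error therefore tell the members apart, but the sources used here do not give the read length.

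Each member had a single exon in the GENCODE annotation, so that neither a junction nor an intron marks its reads as RNA. The RNA was DNase-treated, per the labels' protocols, and a part of any remaining genomic DNA in these values was not tested. The deposited rows cover different parts of the genes. The Pou3f4 row (mm9, chromosome X, 108009804 to 108010889) spans 1086 bases, equal to its coding length with the stop codon, whereas the GRCm38 transcript has 2928 bases. The Pou3f3 row (chromosome 1, 42753991 to 42757054) spans 3064 bases against a transcript of 7409 bases. The rows of Pou3f1 (chromosome 4, 124334889 to 124337899) and Pou3f2 (chromosome 4, 22409242 to 22415513) span 3011 and 6272 bases. Levels are given as FPKM, the fragments assigned to a gene scaled by transcript length and by the mapped fragments of the library. This scaling is meant to make genes comparable. Because the rows cover different parts of the genes, the order, total and shares of the members may be off, which was not tested.

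The targeted gene was checked in every library. Cic had 51.3 and 56.4 FPKM in WT and 19.1 and 22.2 FPKM in the knockout, with limma's adjusted p of 0.213 (0.00486 without KO A, 0.0254 without KO B, 0.733 without WT A and 0.665 without WT B). The neuronal marker genes Tubb3, Dcx, Stmn2 and Map2 summed to 2829 and 2782 FPKM in WT, 2756 FPKM in KO A and 2355 FPKM in KO B, so that both knockout sums were under both WT sums. Between the groups, 3 of these 4 genes overlapped. In KO A, Tubb3, Stmn2 and Map2 stood at 98.6%, 99.0% and 98.8% of their WT means. In KO B they stood at 88.3%, 85.2% and 75.8%. Only Dcx had groups that did not overlap, with the knockout lower, as was found for 21.7% of all tested rows. Dcx, a microtubule protein gene of young neurons, was at 92.5% of its WT mean in KO A and 61.7% in KO B. The part of this in the results on the POU genes was not tested.

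In WT brain the order of the levels was Pou3f3, Pou3f1, Pou3f2 and Pou3f4. Their mean FPKM were 82.2 ± 2.84, 29.4 ± 1.11, 15.0 ± 0.525 and 9.60 ± 1.29 (SD, n = 2 each). Among the WT levels of the 12703 rows tested, Pou3f3 stood at percentile 92.4, Pou3f1 at 75.4, Pou3f2 at 56.1 and Pou3f4 at 42.1. No neighbours in this order overlapped between the WT libraries. In the knockout the order of the means was the same, but Pou3f2 and Pou3f4 overlapped, and in KO A Pou3f4 (9.86 FPKM) was level with Pou3f2 (9.78 FPKM).

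Every knockout value of Pou3f1, Pou3f2 and Pou3f3 was under every WT value, and Pou3f4 was at the same mean level in both groups. The difference was largest for Pou3f1, at 62.6% of its WT mean, and was 73.9% for Pou3f2 and 74.0% for Pou3f3. None of the 4 passed limma's test over all rows at an adjusted p of 0.05. That test called 0.0236% of rows lower and 0.0236% higher. Knockout libraries lay below both WT libraries for 3 of the 4 members, and for 21.7% of all tested rows.

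**Figure D1:**
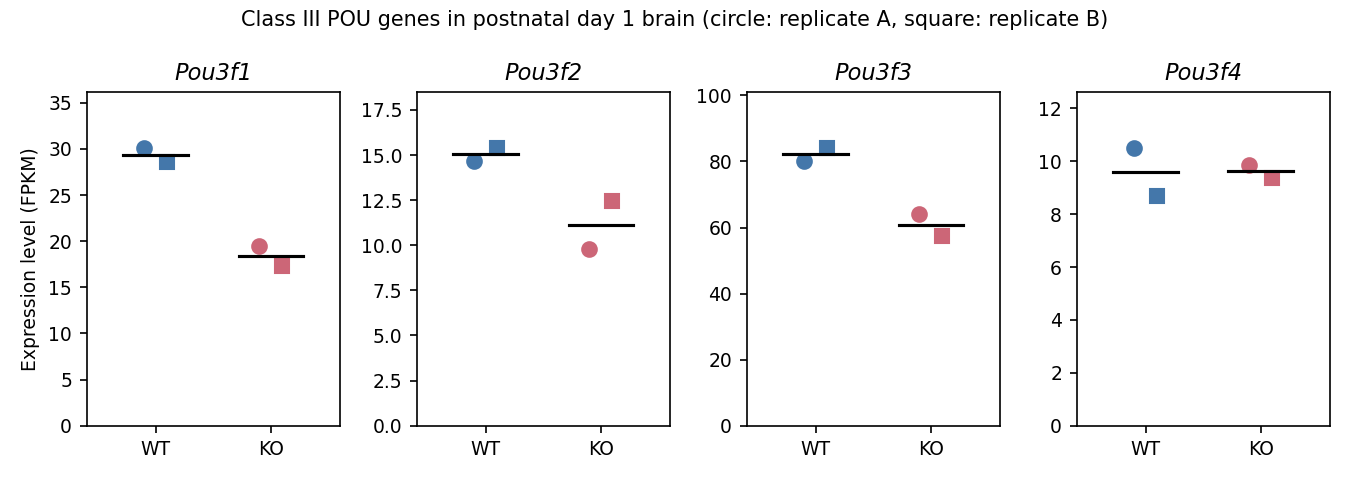
Expression level in FPKM of each class III POU gene in WT and knockout (KO) brain. Circles are replicate A, squares replicate B and bars the mean of 2 libraries. Both knockout libraries lie below both WT libraries for Pou3f1, Pou3f2 and Pou3f3, and between the WT libraries for Pou3f4.

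Pou3f1 stood at 30.1 FPKM in WT A and 28.6 FPKM in WT B, against 19.5 FPKM in KO A and 17.3 FPKM in KO B. The groups did not overlap, and their gap was wider than the distance between replicates in either group. On the log2(FPKM + 1) scale used for testing, which understates the change of low genes, the difference was -0.65 ± 0.11 (SE). Its unadjusted p in limma was 0.00221, rank 65 of 12703 rows, and the adjusted p was 0.411. Of all rows, 1.00% had a difference as low or lower.

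For Pou3f2 the levels were 14.7 FPKM in WT A, 15.4 FPKM in WT B, 9.78 FPKM in KO A and 12.5 FPKM in KO B. It was the member whose knockout libraries differed most from each other, at 65.0% and 82.9% of the WT mean. Its difference of -0.41 ± 0.14 (log2, SE) had an unadjusted p of 0.0345 and an adjusted p of 0.484 in limma. A difference as low or lower was found in 3.90% of rows.

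Pou3f3, the most abundant member, reached 80.2 FPKM in WT A and 84.2 FPKM in WT B, and 64.1 FPKM in KO A and 57.5 FPKM in KO B. The lowest WT library was thus above the highest knockout library, and KO B was the lower of the knockout pair, as for Pou3f1 and unlike Pou3f2. In limma the log2 difference was -0.43 ± 0.10 (SE), an unadjusted p of 0.0108 and an adjusted p of 0.439. At an unadjusted p under 0.05, 3.54% of all rows were lower, and Pou3f1, Pou3f2 and Pou3f3 were among them.

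Pou3f4 was measured at 10.5 FPKM in WT A and 8.69 FPKM in WT B. KO A (9.86 FPKM) and KO B (9.38 FPKM) lay between them. The log2 difference of 0.01 ± 0.12 (SE) had an adjusted p of 0.983 in limma. The 95% interval of the difference, from limma's shared spread, was -0.31 to 0.33 and holds none of the point estimates of the other 3 members. The corresponding intervals were -0.93 to -0.37 for Pou3f1, -0.78 to -0.05 for Pou3f2 and -0.71 to -0.16 for Pou3f3. The last 2 overlap that of Pou3f4 and the first does not.

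**Figure D2:**
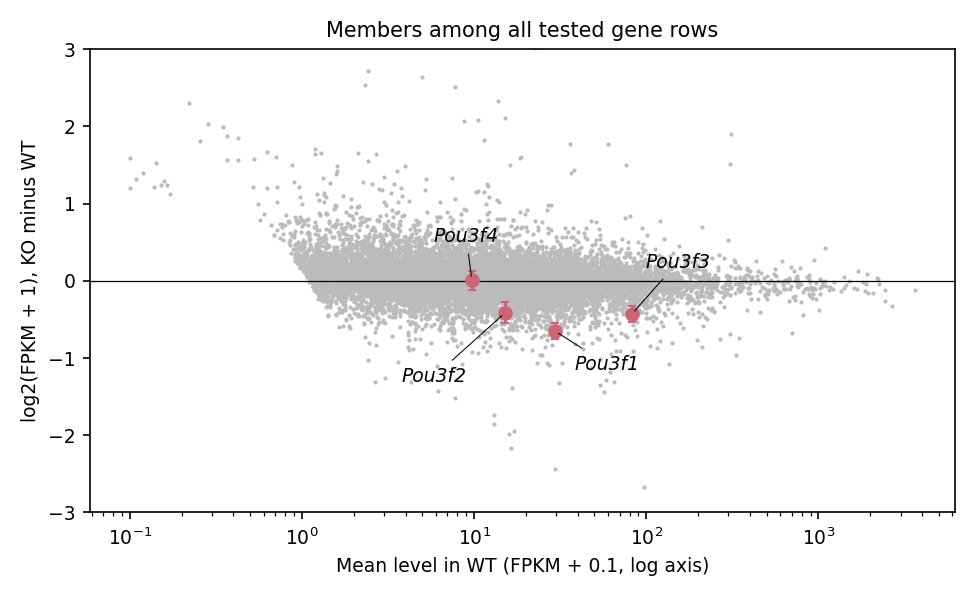
Difference in log2(FPKM + 1) between knockout and WT against the mean WT level (FPKM + 0.1, log axis) for the tested gene rows (grey), with the 4 class III POU genes in red and bars of 1 SE. Pou3f1 (-0.65), Pou3f3 (-0.43) and Pou3f2 (-0.41) lie on the lower side of the cloud and Pou3f4 (0.01) at its middle; 4 rows lie beyond the plotted range.

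Calls depended on which knockout library was kept. Without KO A, Pou3f1 (log2 difference -0.73, adjusted p = 0.00747) and Pou3f3 (-0.51, adjusted p = 0.0138) passed limma's test, and Pou3f2 (-0.25, adjusted p = 0.0642) did not, in a fit that called 16.0% of rows lower. Without KO B the values were -0.57, -0.35 and -0.57 for Pou3f1, Pou3f3 and Pou3f2, with adjusted p of 0.0964, 0.156 and 0.0949, in a fit that called 0.0866% of rows lower. In both fits the spread comes from the WT pair alone, and the single knockout library is assumed to share it. With either WT library left out, limma's adjusted p was 0.9995 or more for each of these 3 genes. Over all tested rows, the difference from the WT mean had an SD of 0.25 on the log2 scale in KO A and 0.44 in KO B, and B minus A had an SD of 0.19 in WT and 0.39 in the knockout.

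Summed over the 4 genes, class III POU RNA was 135.5 FPKM in WT A, 136.9 FPKM in WT B, 103 FPKM in KO A and 96.6 FPKM in KO B. The knockout totals were 75.8% and 70.9% of the WT mean. Pou3f3 made up most of the total in every library, with 59.2% and 61.5% in WT and 62.1% and 59.5% in the knockout, so its share overlapped between groups. The share of Pou3f1 was 22.2% and 20.9% in WT and 18.9% and 17.9% in the knockout. The share of Pou3f4 went the other way, from 7.76% and 6.35% to 9.55% and 9.71%. For Pou3f2 it was 10.8% and 11.3% in WT, 9.47% in KO A and 12.9% in KO B. The WT and knockout shares thus did not overlap for Pou3f1 and Pou3f4, and overlapped for Pou3f2 and Pou3f3.

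**Figure D3:**
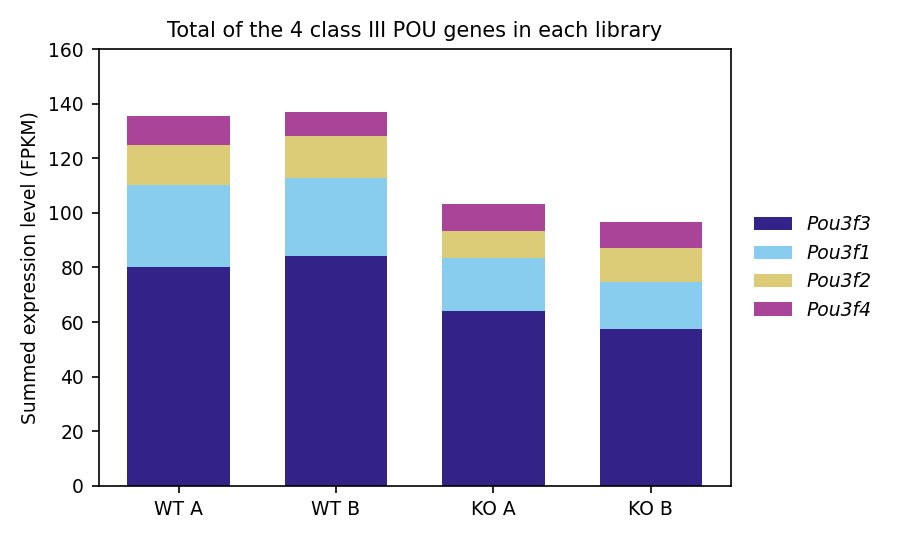
Summed expression level (FPKM) of the 4 class III POU genes in each library, stacked by gene. Totals are 135.5 FPKM (WT A), 136.9 FPKM (WT B), 103 FPKM (KO A) and 96.6 FPKM (KO B), and the Pou3f4 segment is of similar height in all 4.

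Ratios between members within a library give the same contrast with less of the scaling of the library. The 1 added to each FPKM keeps that scaling from cancelling fully. The log2 ratio of Pou3f1 over Pou3f4 (log2 of FPKM + 1) was 1.44 and 1.61 in WT and 0.91 and 0.82 in the knockout. That of Pou3f3 over Pou3f4 was 2.82 and 3.14 in WT and 2.58 and 2.49 in the knockout, and that of Pou3f2 over Pou3f4 was 0.44 and 0.76 in WT and -0.01 and 0.37 in the knockout. Pou3f1 over Pou3f3 was -1.38 and -1.53 in WT and -1.67 and -1.68 in the knockout. The groups did not overlap for these 4 ratios. Pou3f1 over Pou3f2 and Pou3f2 over Pou3f3 overlapped. Over the 6 pairs the lowest exact permutation p (two-sided) was 0.333, the smallest that 2 libraries against 2 allow, and 0.5 after Benjamini-Hochberg adjustment. The test could not have passed the threshold at this size, so these values are a description of the 4 libraries.

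Promoter sequence was looked at because 3 members were lower together and CIC binds a known octamer. RefSeq promoter sequences of GRCm38.p6 (250 bases before to 50 after the gene start) were matched for 3 of the 4 genes, Pou3f2, Pou3f3 and Pou3f4. The CIC octamers TGAATGAA and TGAATGGA were in none of the 3 on either strand, and in 1.303% and 1.21% of all 32851 promoter sequences. Including the variants TCAATGAA and TCAATGGA, chosen after the first search, 3.84% of promoters held at least 1 and these 3 held none. The POU octamer ATGCAAAT was in none of the 3 and in 1.74% of all. These counts say only that the letters are not in these windows. The 250 bases before the start of each gene are printed 5′ to 3′ on the gene's strand. Capitals mark CCAAT, or ATTGG where it lies on the other strand, a promoter element picked after the sequences were seen.
Pou3f2 (GRCm38.p6, chr4:22488367-22488616, - strand): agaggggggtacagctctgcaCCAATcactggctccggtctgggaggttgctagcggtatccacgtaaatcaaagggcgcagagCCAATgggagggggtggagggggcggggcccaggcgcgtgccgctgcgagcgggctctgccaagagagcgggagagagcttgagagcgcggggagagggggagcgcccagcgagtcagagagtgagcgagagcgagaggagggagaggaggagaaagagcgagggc
Pou3f3 (GRCm38.p6, chr1:42695518-42695767, + strand): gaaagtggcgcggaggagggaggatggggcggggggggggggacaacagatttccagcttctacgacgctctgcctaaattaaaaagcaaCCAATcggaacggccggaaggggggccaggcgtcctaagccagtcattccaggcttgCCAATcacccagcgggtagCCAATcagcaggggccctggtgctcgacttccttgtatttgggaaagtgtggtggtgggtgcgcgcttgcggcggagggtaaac
Pou3f4 (GRCm38.p6, chrX:110814129-110814378, + strand): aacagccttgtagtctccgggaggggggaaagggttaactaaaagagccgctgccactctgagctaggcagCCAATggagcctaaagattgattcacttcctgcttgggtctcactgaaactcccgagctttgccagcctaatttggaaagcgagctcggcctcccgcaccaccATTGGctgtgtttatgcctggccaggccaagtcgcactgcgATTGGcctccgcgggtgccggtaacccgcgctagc

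CCAAT occurred at 2 places for Pou3f2 and at 3 places each for Pou3f3 and Pou3f4. Of all promoter sequences 37.4% held at least 1, 11.7% at least 2 and 3.37% at least 3. A link between CCAAT and the levels of these genes was not tested.

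Among genes described as targets of class III POU factors, or as needing them, 6 of 10 were measured at a mean of 1 FPKM or more. None passed over all rows in either direction. In KO A and KO B alike, 5 of the 6 were under the WT pair and 1 over it, against 21.7% and 27.1% of all rows, and the list's median log2 difference was -0.30 against 0.02 over all tested rows. Without KO B the median was -0.18. With no filter on low values it was -0.15.

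Nes encodes nestin, an intermediate filament of neural progenitors whose neural enhancer binds class III POU and Sox factors. It had 11.2 and 10.97 FPKM in WT and 8.002 and 6.84 FPKM in the knockout, a log2 difference of -0.52 ± 0.11 (SE; limma, adjusted p = 0.417). The groups did not overlap. Nestin regulatory sequence also drives the Cre transgene of this model. Dab1, the intracellular adaptor of reelin signalling in migrating neurons, had 55.3 and 55.1 FPKM in WT and 43.6 and 41.9 FPKM in the knockout, a log2 difference of -0.36 ± 0.09 with an adjusted p of 0.439 in limma. Epha4, an ephrin receptor gene that Pou3f4 regulates in the inner ear, had 38.2 and 37.6 FPKM in WT and 31.6 and 26.6 FPKM in the knockout. The radial glial fatty acid binding protein gene Fabp7 had 508 and 495 FPKM in WT, 472 FPKM in KO A and 383 FPKM in KO B. Dll1, a Notch ligand gene with an enhancer bound by class III POU factors, differed least, with 7.81 and 7.38 FPKM in WT and 6.98 and 6.93 FPKM in the knockout.

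Avp, the vasopressin gene of hypothalamic neurons that need Pou3f2, was the target on the higher side. It had 4.36 and 0.281 FPKM in WT, and 16.3 and 16.2 FPKM in the knockout, and the WT libraries themselves differed widely. In limma the log2 difference of 2.72 ± 0.68 (SE) had an adjusted p of 0.442. The other hypothalamic hormone genes of the list were low. Oxt (oxytocin) had 0.191 FPKM in WT A, was listed at 0 in WT B and had 0.759 and 1.19 FPKM in the knockout. Crh (corticotropin-releasing hormone) had 0.899 and 0.514 FPKM in WT and 1.05 and 0.692 FPKM in the knockout, so the groups overlapped. Egr2, a Schwann cell gene that follows Pou3f1 in peripheral nerve, was at or below 0.508 FPKM in every library.

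The factors that act before Pou3f2 in neuroendocrine hypothalamus were not lower. Otp, a homeobox gene of that lineage, had 0.37 FPKM in WT A, was listed at 0 in WT B and had 2.19 and 6.18 FPKM in KO A and KO B, with limma's adjusted p of 0.417. Arnt2, the partner of SIM1, had 94.7 and 101.5 FPKM in WT and 112.9 and 101.6 FPKM in the knockout, and Sim1 was under 1 FPKM in all libraries (0.114 to 0.739). None of the 2 tested genes passed. Otp passed the filter on low values through the knockout libraries alone, so its direction was bound to be higher.

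**Figure D4:**
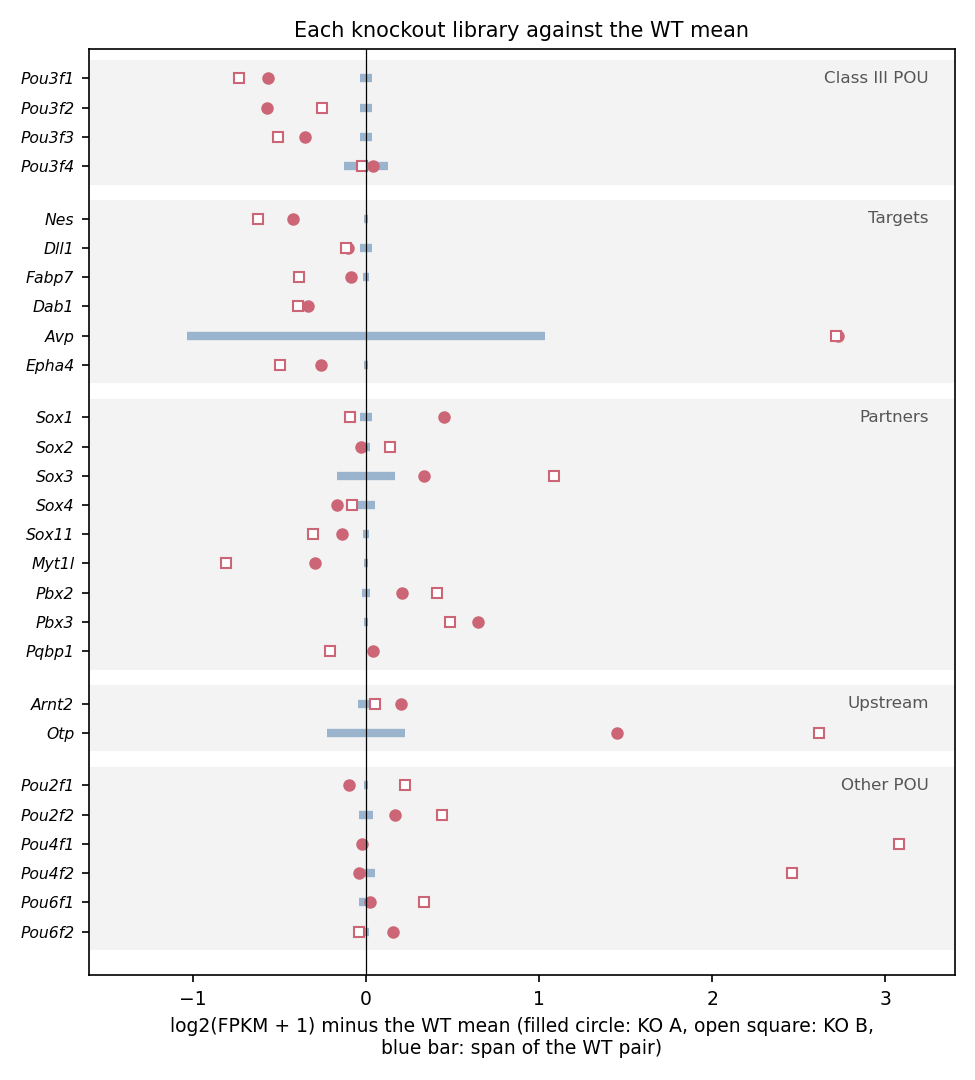
Each knockout library against the WT mean, in log2(FPKM + 1), for the class III POU genes and for tested genes of the target, partner, upstream and other POU lists that are reported here. Filled circles are KO A, open squares KO B and blue bars the span of the WT pair. Pou3f1, Pou3f2 and Pou3f3 lie left of their WT span in both knockout libraries, and Pou4f1 and Pou4f2 lie far to the right in KO B alone.

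Partner genes lay on both sides, and 0 of 11 passed. In KO A and KO B alike, 5 were under and 3 over the WT pair, against 21.7% and 27.1% of all tested rows. The median log2 difference was -0.09 (-0.03 without KO B). Sox2, the SoxB1 factor that binds beside class III POU factors in progenitors, had 28.0 and 27.2 FPKM in WT and 27.0 and 30.5 FPKM in the knockout, so the groups overlapped. Its relative Sox3 had 3.78 and 2.79 FPKM in WT and 4.37 and 8.03 FPKM in the knockout. Myt1l, used together with Pou3f2 to convert fibroblasts into neurons, had 69.0 and 70.1 FPKM in WT, 56.6 FPKM in KO A and 39.3 FPKM in KO B (log2 difference -0.55 ± 0.19, SE; limma's adjusted p = 0.485). Sox11, a SoxC factor of young neurons, had 78.1 and 79.9 FPKM in WT and 71.7 and 63.7 FPKM in the knockout.

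Among the homeobox cofactor genes, Pbx3 had 32.4 and 32.0 FPKM in WT and 51.0 and 45.4 FPKM in the knockout, a log2 difference of 0.57 ± 0.10 (SE; limma, adjusted p = 0.417). Pbx2 had 13.5 and 13.1 FPKM in WT and 15.5 and 18.0 FPKM in the knockout.

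Of the 11 other POU genes 6 were tested, and none passed. In KO A and KO B alike, 0 were under the WT pair and 1 over it, against 21.7% and 27.1% of all tested rows. The gene over it was Pou2f2, a class II gene, with 3.02 and 2.80 FPKM in WT and 3.39 and 4.30 FPKM in the knockout. Pou6f1, a class VI gene of neurons, had the highest level of them, at 35.3 and 37.4 FPKM in WT and 36.9 and 46.1 FPKM in the knockout. Pou4f1 (Brn3a), a factor of sensory and some midbrain neurons, was at most 0.0422 FPKM in 3 libraries and 7.81 FPKM in KO B. Pou4f2 (Brn3b), best known from retinal ganglion cells, was at most 0.0785 FPKM in those 3 and 4.72 FPKM in KO B. Pou4f3, known from hair cells of the inner ear, had 0.988 FPKM in KO B and at most 0.0489 FPKM elsewhere. Pou4f1 and Pou4f2 passed the filter on low values through KO B alone, so neither could lie under the WT pair in both knockout libraries. The list's median of 0.24 was 0.08 with no filter and -0.00019 without KO B. Pou1f1, the class I pituitary factor, was listed at 0 in all 4 libraries.

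Markers of brain regions and cell types also differed between the groups, and their part in them was not tested. In bulk tissue, fewer cells of a type and less RNA per cell cannot be told apart. None of the markers passed limma's test over all rows. The counts of genes below or above both WT libraries stand beside 21.7% and 27.1% of all tested rows. Of 8 upper-layer cortical genes 4 lay below both WT libraries and 0 above. The list summed to 389 and 391 FPKM in WT and 355 and 274 FPKM in KO A and KO B. In KO A the lower sum came from a single gene that is not reported here by name. The list's median log2 difference from the WT mean was -0.10 in KO A and -0.35 in KO B. Among the 8, Rorb (2.78 and 2.88 against 1.73 and 2.02 FPKM) lay below both WT libraries. So did Mdga1 (15.7 and 16.9 against 13.4 and 11.9 FPKM) and Cux2 (14.8 and 14.9 against 13.0 and 14.0 FPKM). Cux1, a homeobox gene of upper-layer neurons (51.7 and 54.7 against 52.6 and 53.4 FPKM), overlapped between groups. Unc5d, Plxnd1 and Lmo4 overlapped too. Of 8 deep-layer genes 5 lay below and 1 above, with sums of 330 and 337 FPKM in WT, 298 FPKM in KO A and 184 FPKM in KO B. Of 10 striatal genes 5 lay below and 2 above (sums 207 and 200 FPKM in WT, 216 and 138 FPKM in the knockout).

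Progenitor and oligodendrocyte precursor lists, whose cells also express class III POU genes, gave the following values. Of 7 radial glial genes 2 lay below and 0 above, against 21.7% and 27.1% of all tested rows. Their sums were 240.5 and 246 FPKM in WT and 239 and 300.3 FPKM in the knockout. Vim was the largest part, with 120 and 126 FPKM in WT, 121 FPKM in KO A and 192 FPKM in KO B. Slc1a3, the next largest, went the other way in KO B, with 75.9 and 77.3 FPKM in WT, 76.8 FPKM in KO A and 61.0 FPKM in KO B. The sum is therefore not read as a level of radial glia. Of 6 tested intermediate progenitor genes 2 lay below and 0 above (sums 98.2 and 96.1 against 82.3 and 86.2 FPKM). The 5 oligodendrocyte precursor genes summed to 78.7 and 80.8 FPKM in WT and 82.1 and 72.0 FPKM in the knockout.

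Most other lists summed higher in KO A, KO B or both. The 6 hypothalamic genes summed to 4.32 and 5.18 FPKM in WT and to 13.1 and 13.0 FPKM in the knockout, with Nr5a1 at 0 in 3 libraries. Nkx2-1 was the largest part, at 2.67 and 3.14 FPKM in WT and 8.55 and 5.50 FPKM in the knockout. The 6 cerebellar and hindbrain genes summed to 9.61 and 13.9 FPKM in WT, 28.7 FPKM in KO A and 86.1 FPKM in KO B. In KO A this sum was nearly all Zic1 (28.6 FPKM), with En2 and Atoh1 listed at 0. Choroid plexus sums were 150 and 491 FPKM in WT and 976 and 1046 FPKM in the knockout, and meningeal sums 47.0 and 67.6 against 80.9 and 87.9 FPKM. Red blood cell genes summed to 287 and 188 FPKM in WT, 99.6 FPKM in KO A, where both Hba-a1 rows were listed at 0, and 1199 FPKM in KO B. Microglial sums were 28.9 and 32.9 against 36.6 and 55.9 FPKM. Their largest part was C1qb, at 16.6 and 21.1 against 24.5 and 39.0 FPKM, and Cx3cr1 and Aif1 overlapped between groups. The genes listed for Schwann cells summed to 26.1 and 31.1 against 31.6 and 37.9 FPKM. Nearly all of this sum was Pmp22 and Mbp, with Prx at most 0.804 FPKM and Foxd3 at most 0.448 FPKM. It is therefore not read as a level of Schwann cells. In KO A, Pou3f1, Pou3f2 and Pou3f3 stood at 66.3%, 65.0% and 78.0% of their WT means. Pou4f1 and En2 were at 0.0249 and 0 FPKM in that library. Its Zic1 and choroid plexus values differed from WT, as did Nkx2-1 (8.55 FPKM against 2.67 and 3.14 FPKM in WT). The part of such regional differences in the POU levels was not tested.

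Genes with the most similar profile were taken as the 3 rows at the smallest Euclidean distance from each member over the 4 libraries, each profile centred on its own mean of log2(FPKM + 1). With 4 libraries this is a description. For Pou3f1 they were Ppm1m (distance 0.0611), Ramp3 and Osbpl1a, with log2 differences of -0.59, -0.62 and -0.69. For Pou3f2 they were Itpr1 (distance 0.0559), Klhl34 and Plxna4, at -0.44, -0.44 and -0.38. The rows nearest Pou3f3 were D430041D05Rik (distance 0.0271), Trp53 and Hivep3, at -0.40, -0.44 and -0.44. Pou3f4 was nearest to Slc30a6 (distance 0.0174), Reep6 and Shisa4, which like it had the WT libraries farther apart than the knockout libraries. No member was among the 3 nearest rows of another.

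Of the rows next to Pou3f1, Pou3f2 and Pou3f3 on their chromosomes, none lay under the WT pair in both knockout libraries, against 21.7% of all tested rows. On chromosome 4, Utp11l, 18.1 kb from Pou3f1, had 22.3 and 20.5 FPKM in WT and 21.3 and 20.1 FPKM in the knockout. Fbxl4, 48.0 kb from Pou3f2, had 6.47 and 6.21 FPKM in WT and 5.82 and 8.10 FPKM in the knockout. On chromosome 1, Mrps9, 151 kb from Pou3f3, had 20.1 and 18.8 FPKM in WT and 20.2 and 19.5 FPKM in the knockout. In each of these 3 rows the groups overlapped. Rragc, on the other side of Pou3f1 at 721 kb, was higher in the knockout, at 29.0 and 30.4 FPKM in WT and 32.7 and 39.1 FPKM in the knockout (log2 difference 0.26; limma, adjusted p = 0.531). On the other sides, Mms22l, 2008 kb from Pou3f2, overlapped between groups at 1.22 to 2.15 FPKM, and Tmem182, 1842 kb from Pou3f3, was at most 0.0785 FPKM. Pou3f4 had Cylc1, a testis gene listed at 0 in all libraries, as its nearest row on one side, at 295 kb, and Gm6377, at most 0.166 FPKM, on the other.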

How the data were processed

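Gene expression was measured by RNA-seq in 4 libraries of postnatal day 1 mouse brain. Reads were processed on the mm9 build with TopHat2 2.0.11, Cufflinks 2.1.1, bcl2fastq 2.17 and cutadapt, per the submitters' processing notes, which give neither order nor settings. The deposited values were taken as FPKM, from the tools named and the values; the file does not state the unit. Column sums were 440005 to 449559. Read totals are unknown. Relative depth, taken from the commonest ratio between libraries among values under 0.15 FPKM, was 1.00 (WT A), 1.20 (WT B), 1.22 (KO A) and 1.03 (KO B), if such rows hold equal fragment numbers. Library strandedness is not stated in the labels.

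The 12703 rows with a mean of at least 1 FPKM, all 4 members included, were tested on the log2(FPKM + 1) scale. The knockout and WT groups were compared with limma 3.58.1 (R 4.3.3; lmFit and eBayes, trend and robust off), two-sided, with no covariate and Benjamini-Hochberg adjustment over all rows at 0.05. The calculation was tested on simulated data. Coordinates of rows are those of the deposited table with the start raised by 1. Sequences came from RefSeq and GENCODE (GRCm38), which differ in build from the table, and were aligned with Biopython 1.88. The members, the gene lists (18 lists of 122 genes) and the tests were chosen with earlier results of these data known. Genes named are the 4 members, Cic, up to 4 members of a list with the largest absolute differences and others with a role that bears on a member, the nearest rows by profile and by position, and further markers picked after their values were seen. Alternatives were other pseudocounts, filters, a rescaling, limma's trend, a replicate block and leaving out each library. A fit without the 13 rows that combine an exact 0 with a value of 10 FPKM or more was added after seeing the data. Counts, medians and sums of the lists include members that are not reported here by name.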

Additional observations from a re-analysis of the deposited data

How the results depend on the processing

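Pou3f1, Pou3f2 and Pou3f3 had negative log2 differences in all 12 alternatives run for each. Leaving out 1 library at a time gave -0.73 to -0.57 for Pou3f1, -0.57 to -0.25 for Pou3f2, -0.51 to -0.35 for Pou3f3, -0.12 to 0.13 for Pou3f4 and -1.45 to -1.24 for Cic. Over the other alternatives the adjusted p values of Pou3f1, Pou3f2 and Pou3f3 in limma ran from 0.278 to 0.586 with no call. Without WT A or WT B they were 0.9995 to 1. Pou3f4 was at -0.011 after rescaling that set the median log2 difference to 0. The count of rows called higher (3) was 1 with a pseudocount of 0.1 or no filter, and 0 with the rows listed at 0 left out, where the count called lower (3) was also 0. Without those rows limma gave 449 rows lower and 850 higher at an unadjusted p under 0.05, against 450 and 840 with them. Leaving out libraries gave 1 to 2269 rows higher and 3 to 2036 lower. Leave-one-out medians ran from -0.00019 to 0.39 for other POU genes and from -0.39 to -0.18 for targets, which were at -0.15 with no filter. The upstream median (1.08, over Otp and Arnt2 alone) was 2.13 and 0.46 with pseudocounts of 0.1 and 5. It was 0.44 with no filter and 0.13 with a mean of 5 FPKM or more, where only Arnt2 remained. Because Otp passed the filter through the knockout libraries alone, its part in this median was bound to be higher. The family total had log2 ratios of -0.50 to -0.40 with 1 library left out, against -0.45. For Pou3f2 over Pou3f3 the change in log2 ratio of 0.02 was -0.0064 with a pseudocount of 0.1, and -0.22 to 0.26 with 1 library left out. For Pou3f1 over Pou3f2 that range was -0.48 to 0.0049. Replicate letters are not stated to mark a shared litter or day, and B minus A in WT and knockout correlated at -0.013 over rows. With the letter as a replicate block, the log2 differences of Pou3f1, Pou3f2 and Pou3f3 stay -0.65, -0.41 and -0.43 and their adjusted p values were 0.278, 0.411 and 0.401.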
